A study of Rattus norvegicus with 42 samples.

Results

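Transcription start sites (TSSs) of the extensor digitorum longus (EDL), a fast muscle of the rat hindlimb, were compared between 3 rats at the end of 7 days of hindlimb unloading (D7; rats 1, 2 and 3) and 3 rats released for 7 days of recovery after the same unloading (R7; rats 12, 13 and 19). These 6 libraries were chosen by their labels from 42 libraries of the series, 21 of EDL and 21 of soleus, a slow muscle. All rats were mature Wistar animals, and the labels and methods name no genetic change and no drug treatment besides the ether used to anaesthetise the rats before they were killed. The other EDL groups, used beside the comparison, were controls without unloading, 1 and 3 days of unloading (D1 and D3) and 1 and 3 days of recovery (R1 and R3), with 3 rats in each of the 7 groups. A rat gave an EDL and a soleus library but stood in only 1 group, so D7 and R7 were different animals and the recovery of a single rat was not followed. Of the 9971 TSS peaks in the deposited table, 9969 were used and 2 on chromosome MT were left out.

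CAGE (cap analysis of gene expression) sequences the capped 5′ end of an RNA, so that each tag marks the base at which transcription of that RNA began. Tags that lie close together on a strand are joined into a TSS peak, and the number of tags in it measures how much capped RNA started there. In the hindlimb unloading model the tail is suspended, the hindlimbs bear no weight, and the postural muscles lose mass. The soleus is a weight-bearing muscle rich in slow fibres and loses the most. EDL lifts the foot and toes, is built mainly of fast fibres and bears little weight in standing. Muscle is a mixture of fibres and other cells, so in bulk RNA fewer cells of a type and less RNA per cell cannot be told apart. Peaks are given by their position on Rnor_6.0, because the files pair no peak with a gene.

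The 6 libraries held 2814982 (R7 rat 12) to 14549791 tags (D7 rat 3), and 70.3% (R7 rat 13) to 86.3% (R7 rat 12) of the tags lay in the peaks. Tags at positions read only once made up 6.75% to 20% of a library, with the highest shares in R7 rat 13 and D7 rat 2 (18%). D7 rats 1 and 2 were sequenced in lane 3, R7 rat 12 in lane 5, and D7 rat 3 and R7 rats 13 and 19 in lane 6. On the log2 scale the libraries correlated with their own group with a mean r of 0.923 to 0.951 with the soleus libraries with a mean r of 0.788 to 0.847, and with the libraries of the other group compared with a mean r of 0.905 to 0.927. For each of the 6 the most similar library was another of EDL, but only for D7 rat 2 was it of the same group. Gene markers of muscle or of other cell types were not analysed here.

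Few start sites of EDL passed the cutoffs for a difference between D7 and R7. Out of 9341 peaks with enough tags to be tested, 71 (0.76%) passed an adjusted p under 0.05 with a fold change over 2.38 in either direction, which is what "called" means from here on. At R7 43 of them were lower (0.46% of the tested peaks) and 28 were higher (0.3%). The called falls were by a median of 2.48 on the log2 scale, from 1.31 to 7.05, and the called rises by a median of 2.19, from 1.38 to 6.21, while the median over all tested peaks was -0.0015. Without a cutoff on the fold change 72 peaks passed, and 958 of the 9341 tested peaks had an unadjusted p under 0.05. In all 71 called peaks the R7 libraries did not overlap with the D7 libraries in CPM, which held for 14.1% of all tested peaks. CPM are the tags of a peak scaled to the library's tags in the peaks tested in that muscle, after TMM adjustment. The additional peak that passed below the cutoff, chr11:80736424-80736726 on the plus strand, was at 26.3, 20.1 and 14.5 CPM at D7 and at 38.3, 50.3 and 52.8 CPM at R7 (log2 fold change 1.22, SE 0.25, adjusted p = 0.0229).

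The size of this set rested on the model and on single libraries. DESeq2 called 227 peaks, all 71 among them. With the sequencing lane in the model 2 peaks were called, chr18:26212730-26212806 and chr1:215745150-215745262, both higher at R7, and 1 of these was among the 71. Leaving out R7 rat 13 left 1 called peak, leaving out D7 rat 1 left 23, R7 rat 12 left 25, with more rises (15) than falls (10), and D7 rat 3 left 40, while without D7 rat 2 the falls went from 43 to 28. A fit of the 6 compared libraries alone called 51 peaks, 33 of the 71 among them. With the total tags as the library size 54 were called, 44 of the 71 among them, and the rises went from 28 to 17. Group and lane were not balanced, and the part of the lane in the differences was not tested beyond these fits. Single log2 fold changes of the 71 peaks moved by a median of 0.22 and by up to 1.16 (rise 3 below) with the lane in the model, and by a median of 0.14 and up to 1.02 (fall 2 below) without R7 rat 13. Within lane 6, where D7 rat 3 stood against R7 rats 13 and 19, the median difference was 2.09 from the mean CPM, against 2.19 over all lanes. These libraries took part in choosing the 71 peaks, so the part of the lane cannot be read from this value.

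**Figure D1:**
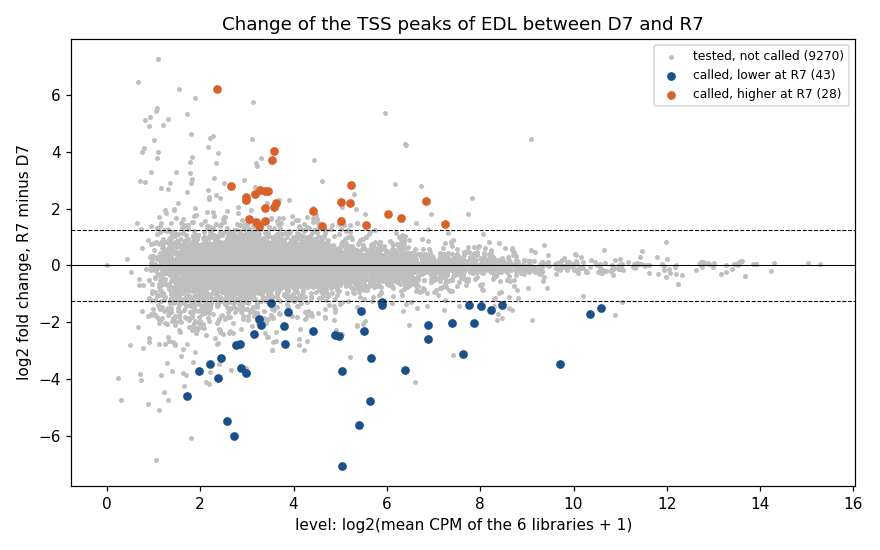
Log2 fold change of each of the 9341 tested peaks (R7 minus D7, y axis) against its level, as log2 of the mean CPM of the 6 EDL libraries plus 1 (x axis). Blue points are the 43 called peaks lower at R7, orange points the 28 called peaks higher at R7, grey points are not called, and dashed lines mark the cutoff on the fold change, 2.38-fold in either direction.

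The falls were the stronger peaks at D7, and the rises were the stronger ones at R7 and in the controls. At D7 the mean of the 3 libraries ranged from 4.47 to 2286 CPM in the 43 peaks, was over 100 CPM in 13 and over 1000 CPM in 3, and their median fell from 58.8 CPM at D7 to 6.61 CPM at R7. Over all tested peaks the corresponding medians were 10.7 and 10.8 CPM. The 28 rises had a median of 4.23 CPM at D7 and 18.2 CPM at R7, and 4 of them passed 100 CPM at R7. In the controls the medians were 6.53 CPM for the falls and 15.9 CPM for the rises. D7 and R7 chose the peaks, so the order in these groups is partly set by the choice. Falling peaks had a median width of 356 nt, against 213.5 nt in the rising ones and 210.0 nt in all tested peaks.

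Among falls of at least 10 CPM at D7, the largest was at chr8:81963512-81963882 on the plus strand (fall 1). It stood at 76.8, 87.8 and 23.8 CPM in D7 rats 1, 2 and 3 and at 2.08, 0.341 and 0.078 CPM in R7 rats 12, 13 and 19. The R7 values came from 5, 2 and 1 tags, so that the peak was nearly silent after recovery, as it was in the controls (1.68 ± 1.61 CPM, SD, n = 3). On the log2 scale it fell by 7.05 (SE 1.18, adjusted p = 0.00922). A second peak of the same chromosome and strand, chr8:117172660-117172863 (fall 2), had 82, 48 and 53 tags at D7 (10.4, 19.3 and 3.22 CPM) and 0, 2 and 1 tags at R7. With only 3 tags at R7 its fitted change, a fall by 6.01 (SE 1.10, adjusted p = 0.0115), depends on the prior count, and from the summed tags the D7 level was 47.9 times the R7 level (95% exact interval for counting error 16.1 to 234). Controls were as low, at 0.109 ± 0.117 CPM.

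The third, chr2:187692170-187692456 on the plus strand (fall 3), spread widely among the D7 rats, at 61.8, 164 and 17.0 CPM, and was at 2.5, 1.02 and 1.64 CPM at R7. Every R7 library was far below the lowest D7 library, and the peak fell by 5.63 (SE 1.11, adjusted p = 0.0185). Even D7 replicates, by contrast, were seen at chr10:12997855-12998021 on the minus strand (fall 6), which was at 58.6, 64.8 and 52.9 CPM at D7 and at 5.83, 3.92 and 4.06 CPM at R7. After its fall by 3.72 (SE 0.68, adjusted p = 0.0112) it was near the control level of 4.12 ± 3.60 CPM. Similarly tight at D7 was the wide peak chr4:30545275-30547014 on the minus strand (fall 10), at 99.4, 80.6 and 92.6 CPM, with 4.58, 5.29 and 17.0 CPM at R7. That peak fell by 3.26 (SE 0.73, adjusted p = 0.0397) and had run an uneven course before, with 280.1 ± 159 CPM at D1 and 9.09 ± 9.62 CPM at D3.

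The strongest of the named falls was chr16:6962574-6963118 on the plus strand (fall 9), at 1788, 2251 and 594 CPM at D7 and at 167, 56.4 and 191 CPM at R7. The fall by 3.48 (SE 0.73, adjusted p = 0.0252) ended at a mean of 138 ± 71.6 CPM, against 191 ± 11.6 CPM in the controls. R7 rat 19 lay within the range of the controls (178 to 198 CPM), and R7 rats 12 and 13 lay below it. D1 and D3 stood at 1199 ± 670.5 and 2055 ± 1461 CPM. At chr9:119328971-119329559 on the minus strand (fall 11) the values were 394, 452 and 214 CPM at D7 and 53.7, 28.3 and 39.3 CPM at R7. It fell by 3.13 (SE 0.64, adjusted p = 0.0229) and the controls were at 21.5 ± 8.80 CPM. D7 rat 1 was the highest library at chr7:2912306-2912737 on the minus strand (fall 7), with 313 CPM against 76.9 and 72.1 CPM in D7 rats 2 and 3 and 10.8, 8.01 and 16.3 CPM at R7. This fall by 3.70 had an SE of 0.85 and an adjusted p of 0.0442.

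The next named fall ended far under the level of the controls. Whether the other named falls equalled the controls at R7 was not tested. At chr13:108590444-108590656 on the minus strand (fall 4) D7 rats were at 39.4, 202 and 39.1 CPM and R7 rats at 4.58, 2.39 and 3.51 CPM, a fall by 4.77 (SE 0.72, adjusted p = 0.00699). The controls were at 67.3 ± 25.4 CPM, D1 at 28.2 ± 11.7, D3 at 45.5 ± 22.9, R1 at 89.4 ± 38.7 and R3 at 63.9 ± 35.3 CPM, so of the 7 EDL groups R7 alone lay under 10 CPM in the mean. Its difference between R7 and controls, -4.32, was not called by edgeR (adjusted p = 0.0632) and was the only difference from the controls at R7 that DESeq2 called. The remaining named falls were low peaks: chr17:19056765-19056962 on the plus strand (fall 5) fell by 3.79 (SE 0.81, adjusted p = 0.0279), chr1:104157763-104157927 on the minus strand (fall 8) by 3.60 (SE 0.76, adjusted p = 0.0276) and chr17:86408061-86409121 on the plus strand (fall 12) by 2.82 (SE 0.65, adjusted p = 0.0497). Their D7 libraries ranged from 4.94 to 21.3 CPM in falls 5 and 12 and from 4.13 to 18.5 CPM in fall 8.

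**Figure D2:**
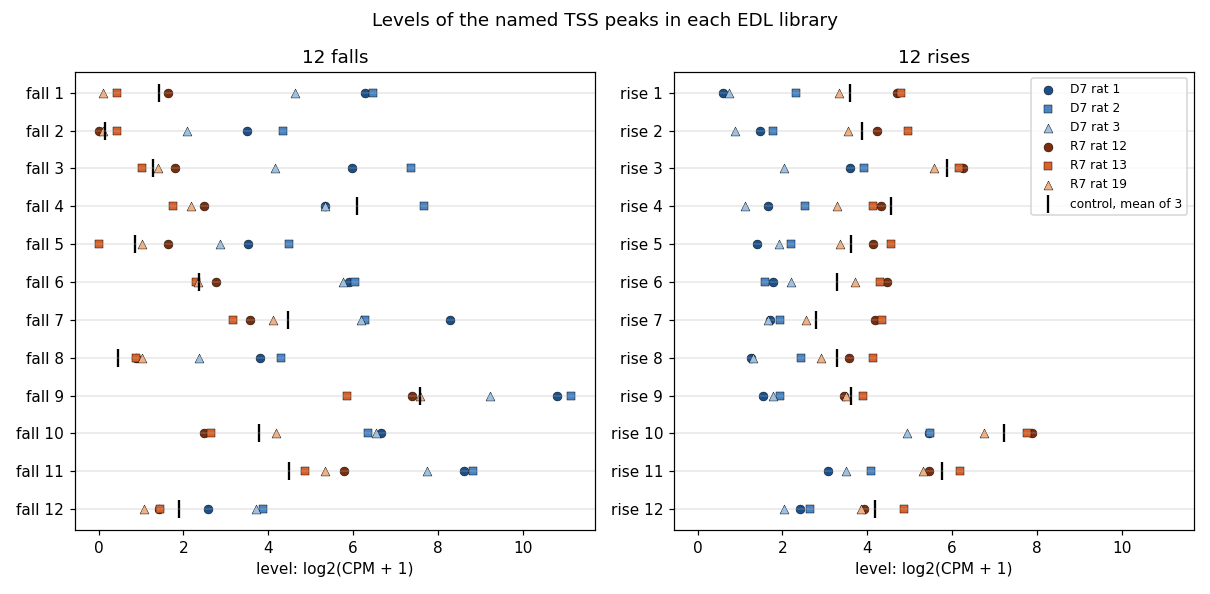
Level of the 12 named falls (left) and 12 named rises (right) in each EDL library, as log2 of CPM plus 1 (x axis). Blue symbols are D7 rats 1, 2 and 3, orange symbols R7 rats 12, 13 and 19, and the black bar is the mean of the 3 controls. All 3 R7 values lie left of all 3 D7 values in the falls and right of them in the rises, and the control bar lies among or near the R7 values except in fall 4.

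Rises went from low to moderate levels. Among rises of at least 10 CPM at R7, the largest was at the narrow peak chr10:53778144-53778270 on the minus strand (rise 1), at 0.506, 4.03 and 0.668 CPM at D7 (4, 10 and 11 tags) and at 25, 26.6 and 9.13 CPM at R7. Its rise was by 4.02 on the log2 scale (SE 0.73, adjusted p = 0.0112), and the controls were at 11 ± 3.43 CPM. In the 400 nt upstream of it the opposite strand also carried tags, 93, 36 and 384 at D7 and 59, 196 and 452 at R7, and scaled to the total tags of the library the groups overlapped there. Rise 2, chr20:18546709-18546931 on the plus strand, went from 1.77, 2.42 and 0.851 CPM to 17.9, 30.4 and 10.6 CPM (log2 fold change 3.72, SE 0.64, adjusted p = 0.00922). R7 rat 19 was the lowest of the 3 R7 libraries in both peaks, as in 20 of the 28 rises.

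A stronger rise was found at chr18:26212730-26212806 on the minus strand (rise 3), from 11.1, 14.1 and 3.10 CPM to 75.3, 70.6 and 46.4 CPM (log2 fold change 2.83, SE 0.50, adjusted p = 0.00922). This 77 nt peak was the one called also with the lane in the model, with a log2 fold change of 3.99 (SE 0.54, adjusted p = 0.0110). Rise 10, chr2:164549341-164549524 on the plus strand, was at 43.3, 43.9 and 29.7 CPM at D7 and at 236, 218 and 107 CPM at R7 (log2 fold change 2.26, SE 0.30). It had the lowest adjusted p of the called peaks given here, 0.00356, and was the one call left without R7 rat 13 (adjusted p = 0.0295). Controls were almost identical at this peak, at 149 ± 0.725 CPM, which lies between the R7 libraries.

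Rises 4 to 9 all started between 1.15 and 4.83 CPM in the D7 libraries and reached 4.92 to 22.5 CPM at R7. They lay at chr9:19532157-19532269 (log2 fold change 2.66), chr15:4081731-4081934 (2.63), chr1:15406946-15407142 (2.61), chr13:110077638-110078117 (2.51), chr9:81816739-81816923 (2.42) and chr15:2374512-2374870 (2.29), with SEs of 0.41 to 0.56. Rise 11 at chr19:22631861-22632145 was at 7.47, 16.1 and 10.4 CPM at D7 and at 42.9, 72.1 and 38.8 CPM at R7, with controls at 53.7 ± 16.5 CPM. The narrowest named peak, chr12:22478763-22478801 on the minus strand (rise 12, 39 nt), rose by 2.20 (SE 0.41, adjusted p = 0.0129), from 4.30, 5.24 and 3.10 CPM to 14.1, 28.1 and 13.4 CPM.

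Outside the named set, 31 falls (by 1.31 to 5.48) and 16 rises (by 1.38 to 6.21) were called. The highest levels were found there, in peaks with smaller changes. At chr1:89007946-89008447 on the plus strand the D7 libraries were at 1931, 3091 and 1836 CPM and the R7 libraries at 755, 852 and 814 CPM (log2 fold change -1.50, SE 0.32, adjusted p = 0.0276). The chrX:159157881-159158453 peak on the plus strand was at 2334, 1949 and 1725 CPM at D7 and at 538, 625 and 668 CPM at R7 (fell by 1.71, SE 0.26, adjusted p = 0.00699). The means were 2286 ± 699 CPM at D7, 807 ± 49.2 CPM at R7 and 971 ± 175 CPM in the controls at the first of them, and 2003 ± 308, 610.2 ± 66.4 and 719 ± 108 CPM at the second (SD, n = 3), with the largest SD at D7 in both. The highest rise was at chr3:159775207-159776200 on the minus strand, from 77.6, 97.9 and 65.3 CPM to 212, 248 and 201 CPM (log2 fold change 1.46, SE 0.28, adjusted p = 0.0161). These peaks were picked for their level after the values were seen.

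Some called peaks lay beside each other, and the share of all tested peaks with such a neighbour was not counted. Joining called peaks of a strand less than 100 kb apart gave 7 runs with 16 peaks, and the called peaks of each run changed in 1 direction. The longest run held 4 falls within 19.3 kb on the minus strand of chromosome 1, fall 8 among them. Its strongest peak, chr1:104166220-104166599, was at 66.8, 59.6 and 29.3 CPM at D7 and at 8.74, 6.65 and 12.1 CPM at R7 (fell by 2.48, SE 0.45, adjusted p = 0.0107). All 5 tested peaks of that strand in the span were lower at R7, but the 4 called falls among them set the span. Neighbouring peaks can be starts of 1 gene, and whether they are was not analysed here.

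The other runs were pairs. On the plus strand of chromosome 5 a pair within 4.05 kb fell, and its larger peak, chr5:159967736-159968618, went from 345, 368 and 413 CPM to 84.9, 101 and 87.9 CPM (fell by 2.04, SE 0.33, adjusted p = 0.00875). On the minus strand of chromosome 10, 27.8 kb held rise 1 and a further rise, chr10:53750471-53750569, which had 2 tags in the 3 D7 libraries and 84 at R7. The summed tags give a ratio of 53.5 for that peak (95% exact interval for counting error 14.3 to 449), and R7 rat 12 with 19.1 CPM was far above R7 rats 13 (3.92 CPM) and 19 (1.17 CPM). A pair 4.49 kb long on the minus strand of chromosome 9 rose, with its stronger peak chr9:80152259-80154627 at 10.1, 10.1 and 18.2 CPM at D7 and at 55.8, 51.2 and 70.3 CPM at R7 (log2 fold change 2.18, SE 0.50, adjusted p = 0.0434). On chromosome 11, chr11:71749994-71750181 and chr11:71757617-71757849, 7.86 kb from end to end, rose by 1.54 and 1.64. The remaining pairs fell, and each held a tested peak of its strand, not called, with the opposite sign. They were chr2:78176207-78176433 and chr2:78214554-78215045 on the plus strand, with 2 of 3 tested peaks lower and 1 higher over 38.8 kb, and chr8:117117147-117117696 and fall 2 on the plus strand, with 3 of 4 lower and 1 higher over 55.7 kb.

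The levels in the other groups place these changes in the course of disuse and recovery. These libraries had no part in the contrast of D7 with R7, but they shared its filter, its scaling and its estimate of the spread. The controls (lane 1) and R1 (lane 4) were sequenced in lanes that held no other EDL group. Per library, the median of the 43 falling peaks was 6.74 to 7.00 CPM in the controls, 33.7 to 51.5 CPM at D1, 28.8 to 48.5 CPM at D3 and 30.6 to 64.8 CPM at D7. It was lower in every recovery library, at 9.83 to 18.8 CPM at R1, 7.19 to 14 CPM at R3 and 4.95 to 7.26 CPM at R7. Single peaks departed from this course of the median: the mean at both D1 and D3 was above that of the controls in 38 of the 43 falls, and fall 4 was not among them. The median of the 28 rising peaks went the other way, with 14.1 to 18.3 CPM in the controls, 7.53 to 8.03 CPM at D1, 6.49 to 8.39 CPM at D3, 3.55 to 5.03 CPM at D7, 7.60 to 8.57 CPM at R1, 11.9 to 16.2 CPM at R3 and 14 to 24.6 CPM at R7. At R1 the rising peaks were thus near their D1 level, and at R3 near that of the controls.

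Peak by peak, the control mean on the log2 scale was closer to R7 than to D7 in 41 of 43 falls and 27 of 28 rises, against 54.8% of all tested peaks. For R3 the numbers were 35 of 43 and 24 of 28 (57.0% of all), and for R1 30 of 43 and 11 of 28 (50.6% of all). D1 was closer to R7 in 7 of 43 falls and 7 of 28 rises (45.7% of all), and D3 in 6 of each (42.9% of all). The called peaks were chosen for a gap between D7 and R7 and the tested peaks as a whole were not. The counts and the shares over all are thus not like measures, and the counts depend partly on the choice. D7 and R7 were each also set against the controls, comparisons that share libraries with the present one and in which group and lane cannot be told apart. Unloading for 7 days gave 97 called peaks (1.04%), 53 higher (0.567%) and 44 lower (0.471%). After recovery 0 peaks (0%) differed from the controls by edgeR, with 413 at an unadjusted p under 0.05 and 1 called by DESeq2. Side by side, fall 9 was 3.01 above the controls on the log2 scale at D7 (adjusted p = 0.046) and -0.47 from them at R7 (adjusted p = 0.983), and rise 10 was at -1.94 at D7 (adjusted p = 0.00669) and 0.32 at R7 (adjusted p = 0.98). Called differences of D7 from the controls fell to 9 without control rat 6, to 26 and 28 without control rats 7 and 8, to 19 without D7 rat 1 and to 54 without D7 rat 3.

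**Figure D3:**
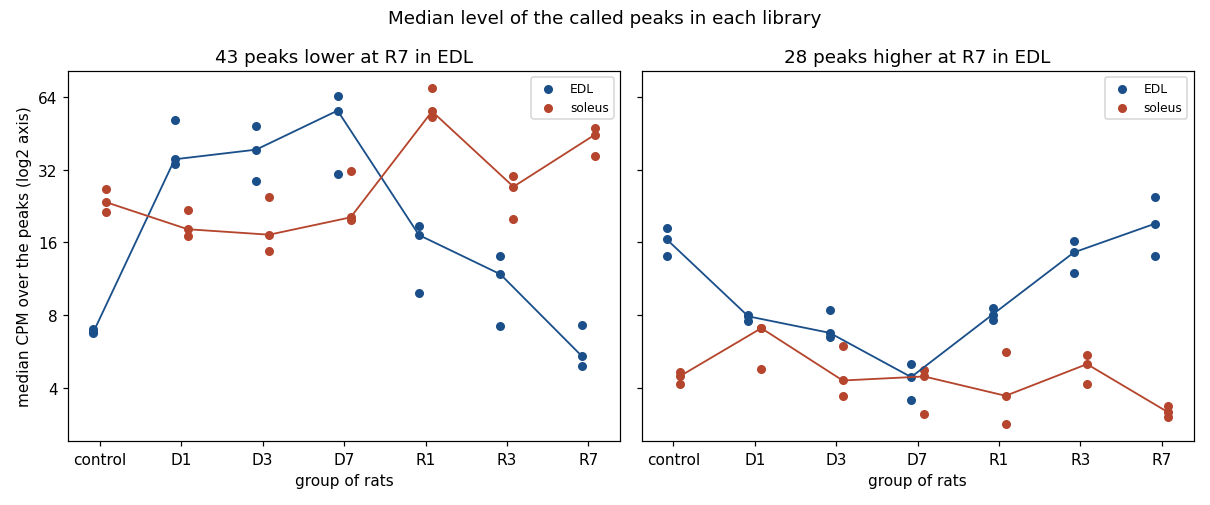
Median CPM (y axis, log2 scale) over the 43 peaks lower at R7 in EDL (left) and the 28 peaks higher at R7 (right), in the 7 groups of rats (x axis). Each point is 1 library, EDL in blue and soleus in red, lines join the middle libraries of the groups, and groups are different animals. EDL and soleus were scaled in separate fits, so their levels are not on a common scale. D7 and R7 of EDL chose the peaks. The other EDL groups entered the choice through the shared filter, scaling and spread only, and in the left panel they lie at 6.74 to 7.00 CPM in controls and at 28.8 CPM or more at D1 and D3.

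Soleus of the same rats had many more called start sites, and part of the EDL falls were higher there at R7. Between D7 and R7 1061 of 9844 soleus peaks (10.8%) were called, 667 higher (6.78%) and 394 lower (4%). Of the 43 EDL falls, 42 were tested in soleus, where 12 were called higher and 4 lower, with a median log2 fold change of 0.81. Of the 28 rises, 24 were tested, 4 were called higher and 4 lower, and the median was -0.07, against 0.01 over all peaks tested in both muscles. The soleus counts come from other libraries than the choice of peaks but from the same animals, and the soleus total ranged from 644 without R7 rat 12 to 1613 without R7 rat 19 (651 without D7 rat 2). No lane held soleus libraries of both D7 and R7, so group and lane cannot be told apart in soleus.

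The difference between the muscles was tested directly in a fit of all 42 libraries. It was called for 552 of 9944 peaks (5.55%), 357 with a lower value in EDL (3.59%) and 195 with a higher one (1.96%). Among the peaks called in EDL the difference was called for 28 of 43 falls and 10 of 28 rises, a count that shares its EDL libraries with the choice of peaks. Where a peak is called lower in EDL and higher in soleus, a called difference is nearly fixed in advance. All 12 such falls were among the 28. Both peaks of the pair on chromosome 5 belonged to them, with soleus log2 fold changes of 1.37 and 1.61. Group and lane cannot be told apart on the soleus side of these differences. No fit with the lane was run for soleus or for the difference between the muscles.

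Fall 9 had the highest level in EDL at D7 among these 12. In soleus it was at 277, 159 and 57.6 CPM in D7 rats 1, 2 and 3 and at 997, 1046 and 1152 CPM in R7 rats 12, 13 and 19, a rise by 2.69 (SE 0.47, adjusted p = 0.00141), while in EDL of the same rats it fell by 3.48. The difference of the changes was -6.17 (SE 0.91, adjusted p = 5.69e-05). Of the 7 soleus groups the peak had its highest mean at R1, 2818 ± 754 CPM. Fall 3 went in soleus from 5.83, 2.09 and 1.19 CPM to 65.4, 44.8 and 46.3 CPM (log2 fold change 4.09, SE 0.51, adjusted p = 0.0002), with a difference of -9.72 between the muscles. Fall 6 rose there from 6.64, 12.6 and 7.72 CPM to 47.2, 69.9 and 72.6 CPM (log2 fold change 2.79, SE 0.48, adjusted p = 0.0013). For fall 5 the soleus libraries were at 1.41, 0.758 and 0.297 CPM at D7 and at 18.9, 24.5 and 44.7 CPM at R7 (log2 fold change 5.07, SE 0.78, adjusted p = 0.000802).

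Among the other named peaks, some moved alike in both muscles, some did not, and some had hardly a tag in soleus. Fall 10 fell also in soleus, from 155, 90.7 and 136 CPM to 9.16, 15.1 and 20.2 CPM (fell by 3.12, SE 0.73, adjusted p = 0.00776), and the difference of -0.15 between the muscles had an SE of 1.02. Rise 3 rose in soleus from 9.45, 23.7 and 4.45 CPM to 82.6, 40.5 and 32.8 CPM (log2 fold change 2.01, SE 0.66, adjusted p = 0.0461). Rise 10 was at 78.6, 117 and 139.8 CPM at D7 and at 58.2, 42.8 and 89.0 CPM at R7 in soleus, where its fold change of -0.82 was not called (SE 0.31, adjusted p = 0.0783) and the difference between the muscles was 3.08 (SE 0.44, adjusted p = 3.72e-05). At rise 2 all 6 soleus libraries had 0 tags, which allows up to 0.159 CPM over the D7 group and 0.138 CPM over the R7 group for counting error, and rise 1 had 2 tags in them, both in R7 rat 12. The mean of 5 of the 28 rises and 2 of the 43 falls was under 1 CPM in soleus at both D7 and R7.

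**Figure D4:**
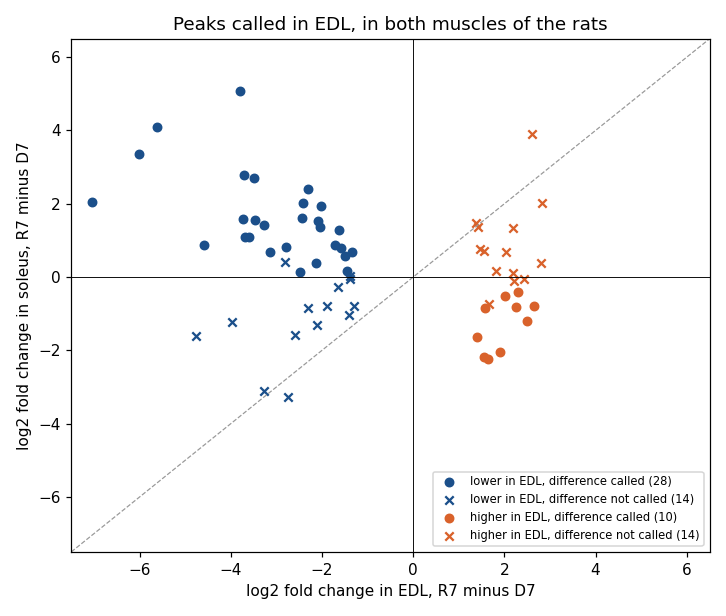
Log2 fold change between D7 and R7 in EDL (x axis) and soleus (y axis) of the 66 peaks called in EDL and tested in both muscles. Blue marks falls and orange rises in EDL, filled circles have a called difference between the muscles (28 falls and 10 rises), crosses do not (14 and 14), and the dashed line marks equal changes. Of the 42 falls, 30 lie above 0 on the soleus axis, and of the 24 rises 11 do, against 4673 of all 9237 peaks tested in both muscles.

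Outside the peaks called in EDL, most of the largest called differences between the muscles were at peaks with a low level in EDL. Of the 5 with the lowest values, 4 had at most 1 tag in the R7 libraries of EDL. Of these, chr10:53636857-53636988, chr10:53637914-53638263 and chr15:58631011-58631211 on the plus strand had 0 tags in all 3 R7 libraries of EDL, under a limit of 0.142 CPM over the group, and at most 1.52 CPM in a D7 library. In soleus the first of them went from 0, 0.190 and 0.594 CPM to 17.5, 29.7 and 4.82 CPM. The fourth, chr10:53641067-53641189, was at 1.90, 4.43 and 0.668 CPM at D7 and had 1 tag at R7 in EDL, and went from 0.402, 0.0948 and 0.594 CPM to 33.8, 47.6 and 4.50 CPM in soleus. The exception was chr1:254735508-254735753 on the minus strand, at 207, 249 and 86.2 CPM at D7 and at 15.0, 1.19 and 15.5 CPM at R7 in EDL, and at 6.43, 1.52 and 4.45 CPM at D7 and 412, 727 and 465 CPM at R7 in soleus. Its change in EDL (fell by 4.11, SE 1.00) had an adjusted p of 0.0594, and the difference between the muscles was -11.16 (SE 1.47, adjusted p = 1.63e-05). In the other direction, chr15:27818986-27819819 on the minus strand was at 15.3, 3.62 and 9.11 CPM at D7 and at 15.4, 24.0 and 39.0 CPM at R7 in EDL, and went from 40.4, 49.7 and 55.8 CPM to 1.46, 1.44 and 7.39 CPM in soleus (difference 5.48, SE 0.76, adjusted p = 2.64e-05).

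The 5 most abundant peaks of EDL were not called. At the second of them, chr19:56676367-56677617 on the minus strand, the D7 libraries were at 35063, 30411 and 31871 CPM and the R7 libraries at 32141, 36710 and 34498 CPM (log2 fold change 0.09, SE 0.31, adjusted p = 0.999). Its start was sharp, with 78% to 81% of the tags at base 522 of the peak in every library. The first, chr14:46643057-46647705 on the plus strand, was broad, 4649 nt wide, and D7 rat 2 with 56211 CPM was above the other 5 libraries (30011 to 44108 CPM). D7 rat 2 was the highest of the 6 also in the remaining 3, chr14:46640859-46642302, chr14:46329466-46329910 and chr1:11967774-11968923. Over these 5 peaks the log2 fold changes were between -0.20 and 0.09 with SEs of 0.29 to 0.42.

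Within the peaks the start positions were read from the single-base tags, which summed to the table's counts in every pair of a peak and a library compared (59814 pairs, 0 differed). In fall 9 the base with the most tags was base 352 from the peak's 5′ end in all 6 libraries, with 44% to 60% of the tags. In rise 10 it was base 147, with 26% to 39%. Of 26 falls with at least 10 tags in each library the strongest base was the same in all 6 libraries in 18, and of 16 such rises in 8, against 44.3% of 6843 such peaks over all. The part of the tag number in these shares was not tested.

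**Figure D5:**
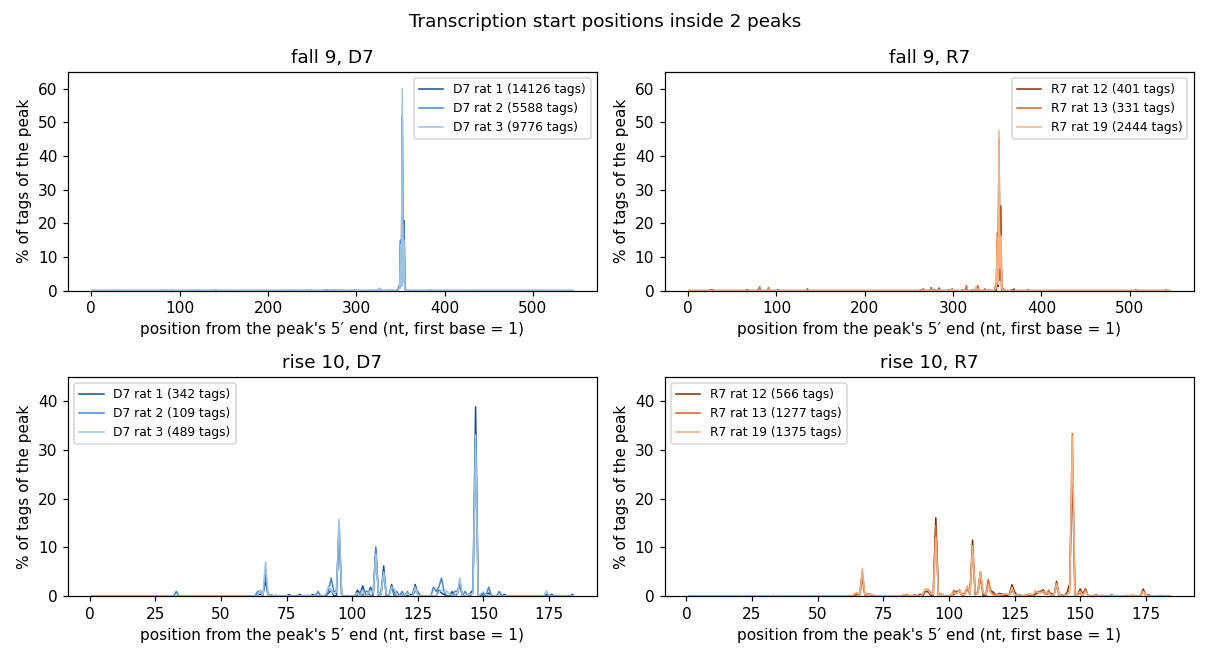
Share of a peak's tags (y axis, %) at each base from its 5′ end (x axis, nt) in fall 9 (top) and rise 10 (bottom), at D7 (left, rats 1, 2 and 3) and R7 (right, rats 12, 13 and 19), with each library's tags in the legend. The highest point lies at base 352 in fall 9 and at base 147 in rise 10 in all 6 libraries.

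The mean start position was tested in 2391 peaks with at least 50 tags in each of the 6 libraries, with limma. No peak passed an adjusted p under 0.05 (0 called, 0%), 184 had an unadjusted p under 0.05, and the smallest adjusted p was 0.143. With the median position in place of the mean 22 shifts were called, 14 towards the 3′ end and 8 towards the 5′ end, and 9 of the 22 had no spread within either group. The median size of the shifts of the mean was 1.07 nt (median SE 1.19 nt), 84.8% were under 5 nt, and the largest was 346 nt. The lowest p was at chr2:45517828-45518755 on the minus strand, with mean positions of 278, 277 and 279 nt from the 5′ end at D7 and 261, 263 and 259 nt at R7, a shift of -17.1 nt (SE 1.27, unadjusted p = 5.99e-05). There the strongest base was base 270 in the 3 D7 libraries and base 208 in the 3 R7 libraries, with 13% to 18% of the tags each. Next came chr13:52197181-52197731 with -22.5 nt (SE 2.44, adjusted p = 0.333) and chr16:20511649-20511908 with -10.2 nt (SE 1.24, adjusted p = 0.333), both on the minus strand and both with the same strongest base in all libraries. Of the called peaks 14 falls and 5 rises had enough tags for the test, and their largest shifts were 8.81 and 14.2 nt.

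Tags on the opposite strand, in the 400 nt upstream of a peak, were counted at the called peaks. At least 30 of them over the 6 libraries were found at 3 of 43 falls and 1 of 28 rises, against 12.1% of all tested peaks, and the rise was rise 1. Plus-strand peaks made up 27 of the 43 falls and 11 of the 28 rises, against 49.2% of all tested peaks, and nothing is read from these counts of opposite tags and strands. By chromosome, the most falls lay on chromosome 1, which had the most tested peaks (7 of 1142, against 43 of 9341 over all). The most rises lay on chromosome 9 (5 of 363 tested peaks, against 28 of 9341 over all), where 2 of the rises are the pair described above. Both chromosomes were picked as extremes after the values were seen, and nothing is read from them.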

How the data were processed

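nAnT-iCAGE libraries were made by the authors from total RNA of 42 muscles of 21 rats and mapped to Rnor_6.0. For the mapping the methods name STAR and the submitters' processing notes name Trimmomatic 0.38, BWA and HISAT2. The methods initially let a read map to several loci. If such reads were kept in the counts, copies of a repeated sequence can share tags. The authors deposited whole-number counts of tags per position and library and raw counts over 9971 TSS peaks of the series. The peak table also holds 42 normalized columns, 1 for each library, which were not used. Peaks on chromosome MT were left out.

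Counts of the 21 EDL libraries were fitted together in edgeR 4.0.16 (R 4.3.3, filterByExpr, TMM, quasi-likelihood test, Benjamini-Hochberg), so the 7 groups shared the estimate of the spread (median biological coefficient of variation 0.304). SEs of log2 fold changes were derived from the F statistic. Soleus was fitted likewise, and the difference between muscles in 1 fit of 42 libraries, with the animal as a block as an alternative. Both muscles of an animal share its number in the labels. Their deviations from the group means correlated with r between -0.372 and 0.307 in the 6 rats compared. Start positions were tested with limma 3.58.1. DESeq2 1.42.0 was an alternative. Distances to group means used log2(CPM + 1), and the lane 6 values log2(CPM + 0.5). Tests were tried on simulated counts first.

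Named peaks were the 12 largest rises and 12 largest falls among called peaks of at least 10 CPM in a group with groups that did not overlap, the 5 with the highest mean, the 3 lowest p-values for shifts and the 5 largest called differences between muscles in each direction. The members and rules were chosen with earlier results of these data known. Gene names, gene lists, cell type markers and sequences need an annotation or genome of Rnor_6.0 and were not used here. Intervals and floors (3 tags over a group) cover counting error only.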

Additional observations from a re-analysis of the deposited data

Results flagged for a closer look

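The change between D7 and R7 differed between EDL and soleus at 552 peaks by the interaction test across all tested peaks. On the soleus side of this test group and lane cannot be told apart. Of the peaks named above, the difference (EDL minus soleus, log2) was called at fall 1 (-9.10), fall 2 (-9.43), fall 3 (-9.72), fall 5 (-8.87), fall 6 (-6.50), fall 7 (-4.79), fall 8 (-4.69), fall 9 (-6.17) and fall 11 (-3.82). It was called with the opposite sign at rise 4 (3.38), rise 7 (3.69), rise 9 (2.67) and rise 10 (3.08).

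Fall 7 lay far higher in soleus, at 925 ± 295 CPM at D7 and 1980 ± 701 CPM at R7 (SD, n = 3), than in any EDL library, and fall 11 was at 852 ± 92.4 and 1366 ± 710.3 CPM in soleus, against 673 ± 213 CPM in EDL at D3, its highest EDL group. The CPM of EDL and soleus were scaled in separate fits, so levels of the muscles are not on a common scale.

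Among the called differences of all peaks the lowest were at chr10:53636857-53636988 (-12.34), chr10:53637914-53638263 (-12.28), chr15:58631011-58631211 (-12.17), chr10:53641067-53641189 (-11.65) and chr1:254735508-254735753 (-11.16). The first 3 rest on 0 tags in the R7 libraries of EDL and the fourth on 1, so their size depends on the prior count. The highest were at chr2:266275441-266275666 (9.19), chr18:61071526-61071877 (6.61), chr9:17697804-17697988 (6.49), chr10:75457193-75457472 (5.53) and chr15:27818986-27819819 (5.48). The size at chr18:61071526-61071877 depends on the prior count too, since its R7 libraries of soleus had 0 tags. At chr2:266275441-266275666 R7 rat 19 held 20 of the 20 tags of R7 EDL, and in soleus the peak was at 62.1, 68.5 and 44.8 CPM at D7 and at 0.104, 0 and 1.93 CPM at R7. Groups of 3 libraries were not tested for outlying samples.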

How the results depend on the processing

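The 71 called peaks of EDL became 227 with DESeq2 and 2 when lane was added as a block, with a range of 1 to 63 when a library was left out. The 6 compared libraries alone gave 51 (33 of the 71 among them, and 27 falls in place of 43), total tags as library size 54 (44 of the 71, and 17 rises in place of 28), the stricter filter 51 (45 of the 71, and 15 rises) and thinning to the shallowest library 58 (51 of the 71, and 18 rises). Every one of the 71 that could be tested kept its sign under each of the alternatives run, which groups that do not overlap fix where a library is left out. In soleus 1061 became 644 to 1613 without a library. The 552 differences between muscles were 552 with the animal as a replicate block (220 higher and 332 lower in EDL, against 195 and 357) and 382 to 515 without an EDL library, and of 34 differences given by position or tested at a named peak the block lost 0 calls and added 2. Shifts of the start went from 0 to 22 with the median position in place of the mean, and 9 of the 22 had no spread within either group, and stayed at 0 without any library. The 97 differences of D7 from controls were 221 with DESeq2 and 9 to 86 without a library, and the 0 of R7 from controls 1 and 0 (these alternatives were chosen after seeing the data). Within lane 6 the difference moved by more than 1 SD at 11 of 24 named peaks. Its sign could not change there, because the named peaks were chosen with groups that do not overlap. With 3 rats a group and 2814982 tags in the shallowest library, small changes of weak peaks may have been missed. Large changes were called at some peaks but not at all. At chr1:254735508-254735753, with a mean of 181 CPM at D7 in EDL, the log2 fold change of -4.11 was not called by edgeR (adjusted p = 0.0594).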
